A study of Mus musculus with 18 samples.

Results

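The genes described here are those of lipoprotein transport, of the liver X receptor (LXR) response and of cholesterol efflux in mouse liver. They were listed by function as 39 gene symbols covering apolipoproteins, assembly factors, sterol transporters, lipases and transfer proteins, receptors, and enzymes that make or split cholesterol esters. Of the 39, 36 had a probe set that the platform annotation assigns to that symbol alone, out of 17097 genes measured, and no filter on low values was applied to them. Abca1, Lipc and Soat1 were not analysed here. Where a gene had several probe sets, the brightest on average across the arrays was used. The others served as a check and existed for 14 of the 36 genes.

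The study profiled liver total RNA on 18 Affymetrix MG-430 PM arrays to look for regulators of reverse cholesterol transport, in 2 models stated to stimulate transintestinal cholesterol excretion, by which cholesterol leaves through the gut wall instead of bile. The first model set 5 samples of NPC1L1 liver transgenic mice against 5 wild-type samples, all on C57BL/6. The second set 4 samples treated with an antisense oligonucleotide (ASO) to ACAT2, an enzyme that esterifies cholesterol in hepatocytes and enterocytes, against 4 given a non-targeting control ASO, all on C57BL/6N. All mice were female and aged 6 to 8 weeks. The labels name the stimulation as chronic in the transgenic mice and as acute after the ASO. The sources used here do not give the promoter or the species of the transgene, the dose or duration of the ASO, or the diet. Strain, agent and time all differ between the models and cannot be told apart. Samples are numbered within a group, and nothing states that each number is a separate animal, so p-values reflect the spread among samples, part of which may be technical.

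The liver secretes VLDL, a particle built around apolipoprotein B, and most of the proteins of HDL, the particle that accepts cholesterol from cells. LXR is a nuclear receptor that senses oxysterols and, with its partner RXR, raises genes for sterol exporters, transfer proteins and a ligase that removes the LDL receptor. In hepatocytes the exporter pair ABCG5 and ABCG8 moves sterols into bile. NPC1L1 carries cholesterol into cells that express it. Values are RMA log2 levels, so a difference of 1 is a doubling. Groups were compared only for a gene with itself and within a model. Array medians set this limit, at 4.61 to 4.65 for the transgenic model but 4.38 to 4.40 for the ASO model.

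The label of the tissue was matched by hepatocyte markers. The mean over 12 of them lay between 10.82 and 11.50 on every array. Other tissues could be carried along, and their markers were read against 4.74, the level below which the lowest 40% of genes lay. The mean over 4 adipocyte markers ranged from 5.11 to 5.87 on single arrays. Of these Adipoq and Lep averaged 3.99 and 3.35, while Retn averaged 5.73 and Fabp4 8.68. The mean over 5 intestinal epithelial markers ranged from 5.18 to 5.75. Of these Vil1, Cdh17, Cdx2 and Krt20 averaged 3.84 to 4.45 and Fabp2 11.09. Kupffer cell and macrophage markers differed more between arrays than either of these lists. Means over 16 markers ran from 7.58 to 8.83 among wild-type arrays and from 7.08 to 8.19 among control ASO arrays. Erythroid markers also varied, with means over 3 of them from 7.08 to 8.15 among transgenic arrays. Means over 6 cholangiocyte markers ran from 4.17 to 4.91 among control ASO arrays. An earlier look at these data had singled out wild-type 2, ACAT2 ASO 1 and control ASO 4 as standing apart, and these are also the arrays with the highest macrophage marker mean of their groups. In whole liver, fewer cells of a type and less RNA per cell cannot be told apart.

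None of the 36 genes passed the test in transgenic liver. Limma, fitted over all genes and all 18 arrays, called 0 of 36 at an adjusted p under 0.05, against 0.228% of all genes. At an unadjusted p under 0.05 there were 2 of 36, Vldlr higher and Pltp lower, against 10.9% of all genes. Of the 36, 21 lay above 0, against 52.6% of all genes, and 15 below, with a median log2 difference of 0.035, against 0.0058 for all genes tested. The 2 groups of arrays did not overlap for 1 gene, Pltp, which was lower, against 2.22% of all genes in either direction and 0.801% lower.

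After the ACAT2 ASO none passed either. Limma called 0 of 36 at an adjusted p under 0.05, against 0.597% of all genes. At an unadjusted p under 0.05 there were 8 of 36, against 13.3% of all genes. Abcg8 was higher. Apom, Nceh1, Lrpap1, Apoc2, Lsr, Apof and Apoc4, 7 of 36, were lower, against 7.63% of all genes. Above 0 lay 16, against 49.7% of all genes, and below it 20, with a median of -0.025, against -0.00056 for all genes. The groups did not overlap for 5 of the 36, with Abcg8 higher and Apom, Apoc4, Lrpap1 and Nceh1 lower, against 9.05% of all genes in either direction and 4.67% lower. With array weights, an alternative of the same test, Apom and Lrpap1 were called lower in the ASO comparison (limma adjusted p = 0.0372 and 0.0338), and 465 genes in all instead of 102.

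The intervals show how large a difference in array value the spread among samples allows, for each gene taken alone. For genes near either end of the scale, such as Npc1l1, Apoa1, Apoa2 and Apoe, loss of range was not tested. In both comparisons the 95% interval of all 36 genes lay inside a 2-fold change in either direction. So did that of most genes, 98.9% of all genes in transgenic liver and 98.2% after the ASO. It lay inside a 1.5-fold change, 0.58 on the log2 scale, for 31 of 36 in transgenic liver and for 29 of 36 after the ASO, against 95.5% and 93.1% of all genes. In transgenic liver the intervals of Pltp, Vldlr, Lpl, Lipg and Apobec1 reached further. After the ASO those of Abcg8, Abcg1, Apoa4, Apobec1, Lpl, Lipg and Vldlr did. At a narrower bound, 0.32 on the log2 scale, 24 of 36 lay inside in transgenic liver and 16 of 36 after the ASO. These are lower shares than the 79.4% and 71.2% of all genes.

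**Figure D1:**
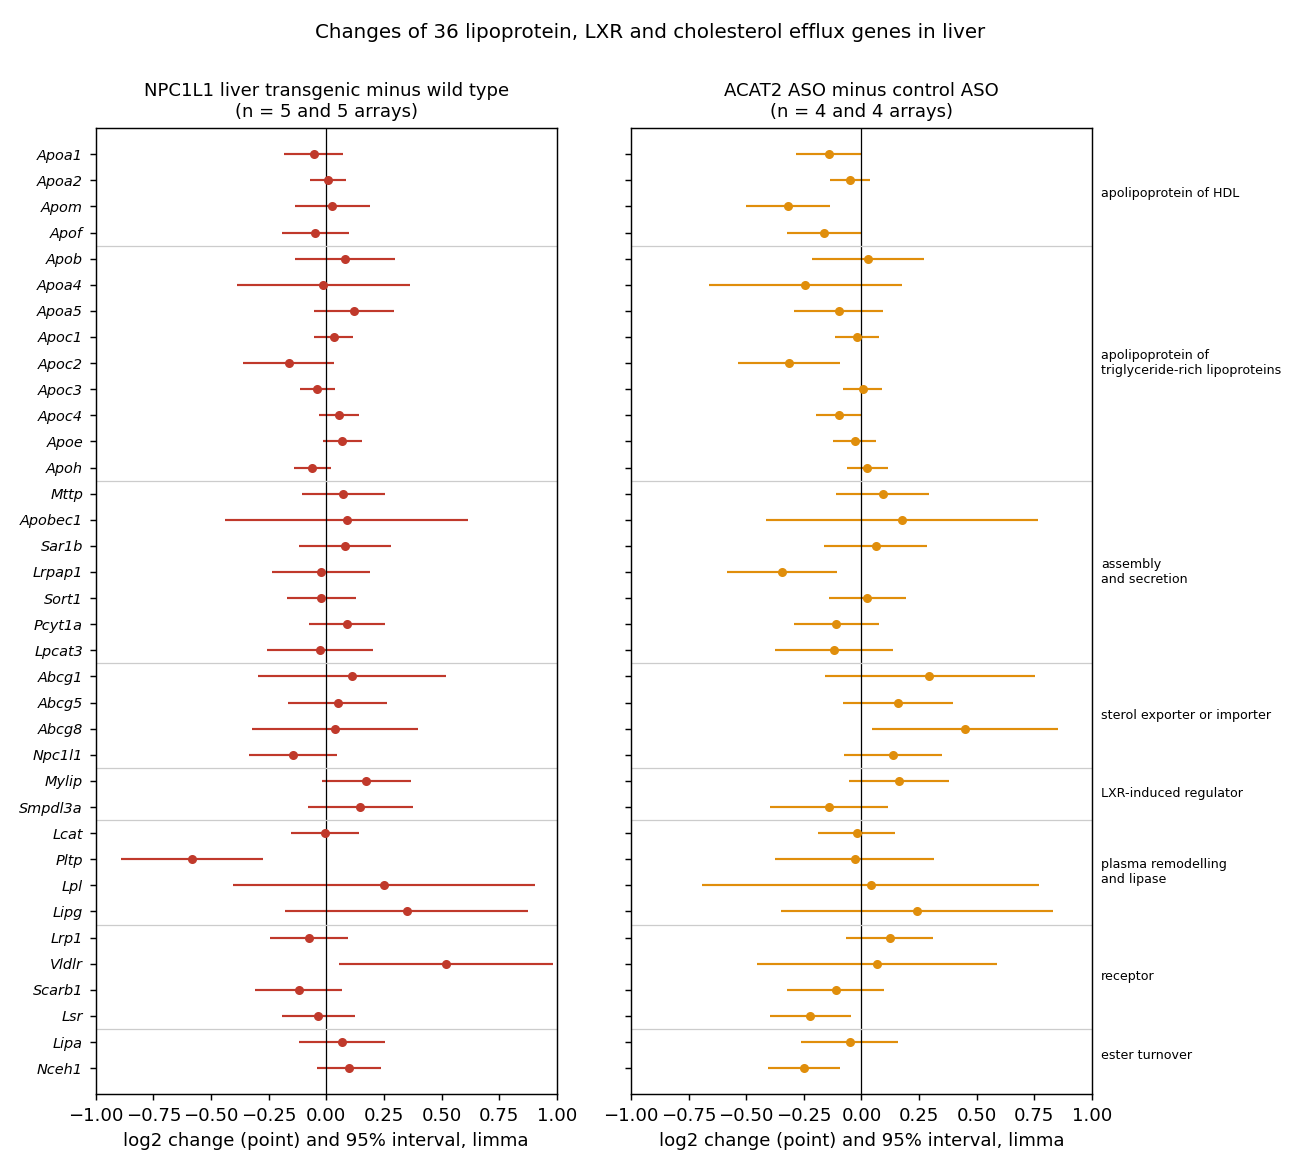
Log2 change (point) and 95% limma interval (line) of each of 36 genes, ordered by role, for transgenic minus wild type (n = 5 and 5 arrays) and ACAT2 ASO minus control ASO (n = 4 and 4 arrays). Most points lie close to 0, Pltp lies at -0.58 in transgenic liver, and the intervals of Lpl, Lipg, Vldlr and Apobec1 are wide in both panels.

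Among the sterol transporters, Abcg8 had the smallest p after the ASO. Abcg8 and Abcg5 are neighbours on mouse chromosome 17, read in opposite directions, and each makes one chain of the exporter that secretes sterols into bile. Their promoter windows, taken by RefSeq on GRCm38.p6 from 250 bases before to 50 bases after a start site, overlap by 209 bases. The window of one Abcg8 start, at chr17:84682871-84683170 on the + strand, is shown because both genes can be read from it. Capitals mark the bases shared with the Abcg5 window at chr17:84682962-84683261 on the − strand.

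Abcg8: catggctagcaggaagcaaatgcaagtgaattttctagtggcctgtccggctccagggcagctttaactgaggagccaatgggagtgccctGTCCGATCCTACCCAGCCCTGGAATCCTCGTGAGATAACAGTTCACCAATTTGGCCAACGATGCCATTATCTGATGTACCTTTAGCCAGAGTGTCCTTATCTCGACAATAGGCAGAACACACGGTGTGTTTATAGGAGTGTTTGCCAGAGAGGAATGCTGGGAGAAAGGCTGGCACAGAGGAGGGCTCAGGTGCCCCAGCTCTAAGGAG

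After the ACAT2 ASO the arrays read 9.79, 10.05, 9.96 and 9.83 for Abcg8, against 9.61, 9.44, 9.67 and 9.12 after the control ASO. All 4 ACAT2 ASO arrays lay above all 4 control arrays, and control ASO 4 was the lowest. The difference was 0.45 ± 0.19 (SE, limma unadjusted p = 0.031, adjusted p = 0.311), or 0.34 without control ASO 4. Without the 3 arrays named above it was 0.38.

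Abcg5, the partner, read 10.75, 11.01, 10.70 and 10.53 after the ACAT2 ASO and 10.73, 10.57, 10.56 and 10.48 after the control ASO. These groups overlapped, and the difference was 0.16 ± 0.11 (SE, limma adjusted p = 0.608). In transgenic liver Abcg8 read 9.72, 9.69, 9.51, 9.50 and 9.16, inside the wild-type range of 9.02 to 10.11, with a difference of 0.04 ± 0.17. Abcg5 differed by 0.05 ± 0.10 there. Among wild-type arrays both genes were lowest on array 1, at 9.02 for Abcg8 and 10.46 for Abcg5, and highest on array 5, at 10.11 and 11.01.

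Abcg1, an LXR-induced exporter that loads cholesterol onto HDL and is prominent in macrophages, differed by 0.11 ± 0.19 in transgenic liver and 0.30 ± 0.22 after the ASO (SE, limma adjusted p = 0.902 and 0.617). After the ACAT2 ASO the arrays read 8.00, 7.51, 6.88 and 7.22, against 7.16, 6.78, 6.98 and 7.50 after the control ASO. Without ACAT2 ASO 1 the difference was 0.10, and without wild-type 1 that in transgenic liver was 0.03. The highest values, 8.00 and 7.50, came from the arrays with the highest macrophage marker mean of their groups.

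Npc1l1, the gene the transgene is named for, lay below the level of 4.74 on every array. It ranged from 3.64 to 4.16 in wild-type and from 3.61 to 3.75 in transgenic liver, with a difference of -0.15 ± 0.09 (SE, limma adjusted p = 0.604). After the ACAT2 ASO it ranged from 4.21 to 4.36, against 3.90 to 4.27 after the control ASO, with a difference of 0.14 ± 0.10 (adjusted p = 0.619). Groups overlapped in each model. The sources used here do not say whether this mouse probe set can detect the transgene, so it does not check the labels.

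Of the LXR-induced regulators, Mylip codes for the ligase that sends the LDL receptor to degradation. It read 7.83, 8.18, 8.16, 8.27 and 8.34 in transgenic liver, against 7.85, 7.83, 8.03, 8.05 and 8.14 in wild type, and transgenic array 1 lay within the wild-type range. After the ACAT2 ASO it read 8.35, 8.05, 8.06 and 8.13, against 7.93, 8.13, 7.87 and 8.01. The differences were 0.17 ± 0.09 in transgenic liver and 0.16 ± 0.10 after the ASO (SE, limma adjusted p = 0.519 and 0.538). Smpdl3a, a phosphodiesterase gene that LXR induces in macrophages, differed by 0.15 ± 0.11 in transgenic liver and -0.14 ± 0.12 after the ASO.

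Among plasma remodelling genes, Pltp had the smallest p of the 36 in transgenic liver. It codes for the phospholipid transfer protein, which moves phospholipids from triglyceride-rich particles to HDL, and it is an established LXR target. Its promoter window, at chr2:164857659-164857958 on the − strand of GRCm38.p6 (RefSeq), holds the letters TATAAA, shown in capitals. They lie after the start site, within the last 50 bases of the window.

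Pltp: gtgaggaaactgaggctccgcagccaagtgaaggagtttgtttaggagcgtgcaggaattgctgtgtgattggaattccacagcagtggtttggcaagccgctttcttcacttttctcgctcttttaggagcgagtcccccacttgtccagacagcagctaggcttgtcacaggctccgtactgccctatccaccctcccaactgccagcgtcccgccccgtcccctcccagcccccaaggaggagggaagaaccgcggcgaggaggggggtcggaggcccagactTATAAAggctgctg

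The wild-type arrays read 7.36, 6.97, 6.71, 7.15 and 6.59 for Pltp, and the transgenic arrays 6.23, 6.41, 6.23, 6.51 and 6.50. Every transgenic array lay below every wild-type array, and the nearest values were 6.51 and 6.59. The difference was -0.58 ± 0.15 (SE, 95% interval from -0.89 to -0.28), with a limma unadjusted p = 0.000924 and an adjusted p = 0.112. Leaving out single arrays gave between -0.67 and -0.48.

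After the ACAT2 ASO Pltp read 5.52, 5.25, 4.93 and 5.36, against 5.67, 5.20, 5.07 and 5.23 after the control ASO, and the groups overlapped almost fully. The difference there was -0.03 ± 0.16 (SE, limma adjusted p = 0.965). In this model Pltp lay near the low end of the scale, and it had no other probe set as a check. The ASO effect minus the transgenic effect was 0.55 ± 0.22 (limma unadjusted p = 0.0216, adjusted p = 0.231), so a difference between the models was not called.

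The other remodelling genes did not pass. Lcat, which esterifies cholesterol on HDL, differed by -0.01 ± 0.07 in transgenic liver and -0.02 ± 0.08 after the ASO. Lpl, lipoprotein lipase, differed by 0.25 ± 0.31 and 0.04 ± 0.35, and Lipg, endothelial lipase, by 0.35 ± 0.25 and 0.24 ± 0.28. These lipases varied widely within groups, with an SD of 0.65 for Lpl in wild type and 0.62 for Lipg after the ACAT2 ASO.

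Of the 4 genes listed as HDL apolipoproteins, 4 lay below 0 after the ASO, as did 8598 of all 17097 genes. Limma called 0 of them, against 0.597% of all genes. At an unadjusted limma p under 0.05, 2 of 4 were lower, against 7.63% of all genes. Others that HDL also carries were listed with triglyceride-rich particles, such as Apoc3 at 0.01. Apom, the carrier of sphingosine 1-phosphate on HDL, read 11.19, 10.92, 11.24 and 11.07 after the ACAT2 ASO and 11.26, 11.42, 11.54 and 11.48 after the control ASO. All ACAT2 ASO arrays lay below all control arrays, though the nearest values, 11.24 and 11.26, nearly touched. The difference was -0.32 ± 0.09 (SE, limma unadjusted p = 0.00193, adjusted p = 0.102), the smallest p of the 36 genes in this comparison. The other Apom probe set differed by -0.27. In transgenic liver Apom read 11.24, 11.19, 11.26, 11.39 and 11.30, within the wild-type range of 10.99 to 11.42, and differed by 0.03 ± 0.08. The difference of the effects was -0.34 ± 0.12 (limma adjusted p = 0.158).

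The Apom promoter window, at chr17:35131752-35132051 on the − strand of GRCm38.p6 (RefSeq), is shown because Apom lay lower after the ASO on both of its probe sets. Capitals mark the 2 copies of GGGTCA, a hexamer that nuclear receptors can bind.

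Apom: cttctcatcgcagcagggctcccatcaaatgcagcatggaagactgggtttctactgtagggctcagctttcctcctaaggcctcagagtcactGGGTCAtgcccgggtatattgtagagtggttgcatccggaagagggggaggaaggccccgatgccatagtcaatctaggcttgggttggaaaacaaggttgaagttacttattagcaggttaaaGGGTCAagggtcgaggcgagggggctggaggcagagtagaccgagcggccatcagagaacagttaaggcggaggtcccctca

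Apof, a regulator of lipid transfer between particles, read 12.17, 12.02, 11.96 and 11.88 after the ACAT2 ASO and 11.93, 12.22, 12.18 and 12.35 after the control ASO. The groups overlapped through ACAT2 ASO 1, the highest of its group, and control ASO 1, the lowest of its own. The difference was -0.16 ± 0.08 (SE, limma adjusted p = 0.364), or -0.10 without control ASO 4. Apoa1, the main HDL protein, differed by -0.14 ± 0.07 and Apoa2 by -0.05 ± 0.04. The other Apoa1 probe set differed by -0.22 (limma unadjusted p = 0.0169, adjusted p = 0.263 with every probe set tested). Both lay near the top of the scale, at means of 13.29 and 13.41 where array maxima were 13.58 to 13.70. In transgenic liver these HDL genes differed by -0.06 (Apoa1), 0.01 (Apoa2) and -0.05 (Apof).

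Of the apolipoproteins of triglyceride-rich particles, Apoc2, the activator of lipoprotein lipase, differed most after the ASO. It read 11.13, 11.50, 11.11 and 11.23 after the ACAT2 ASO and 11.77, 11.47, 11.47 and 11.50 after the control ASO. Only ACAT2 ASO 2 reached the control values, and control ASO 1 stood above the rest. The difference was -0.31 ± 0.11 (SE, limma unadjusted p = 0.00804, adjusted p = 0.176), or -0.24 without control ASO 1.

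In transgenic liver Apoc2 read 11.84, 11.41, 11.46, 11.37 and 11.45, against 11.66, 11.60, 11.60, 11.83 and 11.65 in wild type. Of the transgenic arrays 4 lay below all wild-type arrays, and array 1 lay above them all. The difference was -0.16 ± 0.09 (SE, limma adjusted p = 0.562), and -0.25 without transgenic 1 (adjusted p = 0.29).

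Apoc4, which lies between Apoc2 and Apoc1 in the Apoe cluster on chromosome 7, read 11.83, 11.87, 11.86 and 11.82 after the ACAT2 ASO and 11.95, 11.95, 11.98 and 11.88 after the control ASO. The groups did not overlap, but the difference was only -0.10 ± 0.05 (SE, limma unadjusted p = 0.0474, adjusted p = 0.366). In transgenic liver it differed by 0.06 ± 0.04, and the difference of the effects was -0.15 ± 0.06 (limma adjusted p = 0.236).

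Apoe, the ligand of remnant receptors and an LXR target in macrophages and fat, read 13.20, 13.25, 13.24, 13.32 and 13.20 in transgenic liver and 13.16, 13.13, 13.22, 13.15 and 13.20 in wild type. The transgenic arrays lay in the upper part of the wild-type range or above it. The difference was 0.07 ± 0.04 (SE, limma adjusted p = 0.556). After the ASO it was -0.03 ± 0.04. Like Apoa1, Apoe lay near the top of the scale, with a mean of 13.17.

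All 4 genes of that cluster lay below 0 after the ASO, by unequal amounts, with Apoc1 at -0.02 and Apoe at -0.03 beside Apoc4 at -0.10 and Apoc2 at -0.31. None of them passed the test. In the other cluster, on chromosome 9, Apoa1 differed by -0.14, Apoc3, an inhibitor of lipoprotein lipase, by 0.01, Apoa4, a protein of chylomicrons and HDL, by -0.24 ± 0.20 and Apoa5, an activator of triglyceride hydrolysis, by -0.10 ± 0.09. In transgenic liver Apoa4 differed by -0.01 ± 0.18, Apoa5 by 0.12 ± 0.08, Apoc3 by -0.04 ± 0.04 and Apoc1 by 0.03 ± 0.04. Apob, the structural protein of VLDL, differed by 0.08 ± 0.10 in transgenic liver and 0.03 ± 0.12 after the ASO.

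Apoh, a phospholipid-binding plasma protein, differed by -0.06 ± 0.04 and 0.03 ± 0.04. Its other probe set, at a mean of 6.63, differed by 0.36 after the ASO (limma unadjusted p = 0.00573, adjusted p = 0.166 with every probe set tested), whereas the used one lay at a mean of 12.88.

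Among genes of particle assembly and secretion, Lrpap1 differed most after the ASO. It codes for the chaperone of LDL receptor family proteins in the endoplasmic reticulum. The arrays read 7.34, 7.34, 7.34 and 7.11 after the ACAT2 ASO and 7.64, 7.80, 7.66 and 7.41 after the control ASO, without overlap. The difference was -0.34 ± 0.11 (SE, limma unadjusted p = 0.00722, adjusted p = 0.17). The probe sets did not all point one way: the others differed by 0.07 and -0.27. In transgenic liver Lrpap1 differed by -0.02 ± 0.10, and the difference of the effects was -0.32 ± 0.15 (limma adjusted p = 0.322).

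The genes that load lipid onto apolipoprotein B and export the particle did not pass the test either. Mttp, the triglyceride transfer protein, differed by 0.07 ± 0.09 in transgenic liver and 0.09 ± 0.10 after the ASO. Sar1b, the small GTPase of large COPII carriers, differed by 0.08 ± 0.09 and 0.06 ± 0.11, and Sort1, a sorting receptor for apolipoprotein B, by -0.02 ± 0.07 and 0.03 ± 0.08. Apobec1, which edits Apob mRNA, differed by 0.09 ± 0.25 and 0.18 ± 0.28. The phospholipid enzyme genes also did not pass, Pcyt1a at 0.09 ± 0.08 and -0.11 ± 0.09 and Lpcat3, an LXR target that remodels phospholipids, at -0.03 ± 0.11 and -0.12 ± 0.12. All 3 other Pcyt1a probe sets were opposite in sign to the used one in transgenic liver, at -0.18, -0.23 (limma unadjusted p = 0.0114) and -0.09.

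Of the 4 receptors, Vldlr differed most in transgenic liver. It codes for the VLDL receptor, which adult liver expresses at a low level. The transgenic arrays read 4.59, 4.95, 5.87, 4.98 and 4.89, and the wild-type arrays 4.55, 4.63, 4.44, 4.58 and 4.48. Transgenic array 3 lay far above the others, and array 1 lay within the wild-type range. The difference was 0.52 ± 0.22 (SE, limma unadjusted p = 0.0304, adjusted p = 0.392), or 0.32 without transgenic 3 (adjusted p = 0.619). The 4 other probe sets differed by 0.43, 0.38, 0.43 and 0.09. After the ACAT2 ASO Vldlr read 4.67, 5.04, 5.68 and 5.58, against 5.22, 5.62, 5.16 and 4.71, a difference of 0.07 ± 0.25. All Vldlr values lay near the low end of the scale.

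Lsr, the lipolysis-stimulated receptor for remnants, read 8.31, 8.18, 8.41 and 8.11 after the ACAT2 ASO and 8.62, 8.38, 8.43 and 8.46 after the control ASO. Only ACAT2 ASO 3, at 8.41, passed the lowest control array. The difference was -0.22 ± 0.08 (SE, limma unadjusted p = 0.017, adjusted p = 0.248), and in transgenic liver it was -0.03 ± 0.07. Scarb1, the HDL receptor, differed by -0.12 ± 0.09 in transgenic liver and -0.11 ± 0.10 after the ASO. Lrp1, a remnant receptor, differed by -0.08 ± 0.08 and 0.12 ± 0.09.

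Of the ester turnover genes, Nceh1 codes for a cholesterol ester hydrolase. It read 8.43, 8.65, 8.53 and 8.72 after the ACAT2 ASO and 8.84, 8.72, 8.95 and 8.82 after the control ASO. The ACAT2 ASO arrays lay below the control arrays, and the nearest pair was equal at 2 decimals. The difference was -0.25 ± 0.07 (SE, limma unadjusted p = 0.00343, adjusted p = 0.131), and the other probe sets differed by -0.05 and -0.13. In transgenic liver it read 8.49, 8.46, 8.76, 8.53 and 8.71, against 8.45 to 8.53 in wild type, a difference of 0.10 ± 0.07. The difference of the effects was -0.35 ± 0.10 (limma unadjusted p = 0.00247, adjusted p = 0.0938), the smallest p of the 36 in that test. Lipa, the lysosomal ester hydrolase, differed by 0.07 ± 0.09 and -0.05 ± 0.10.

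**Figure D2:**
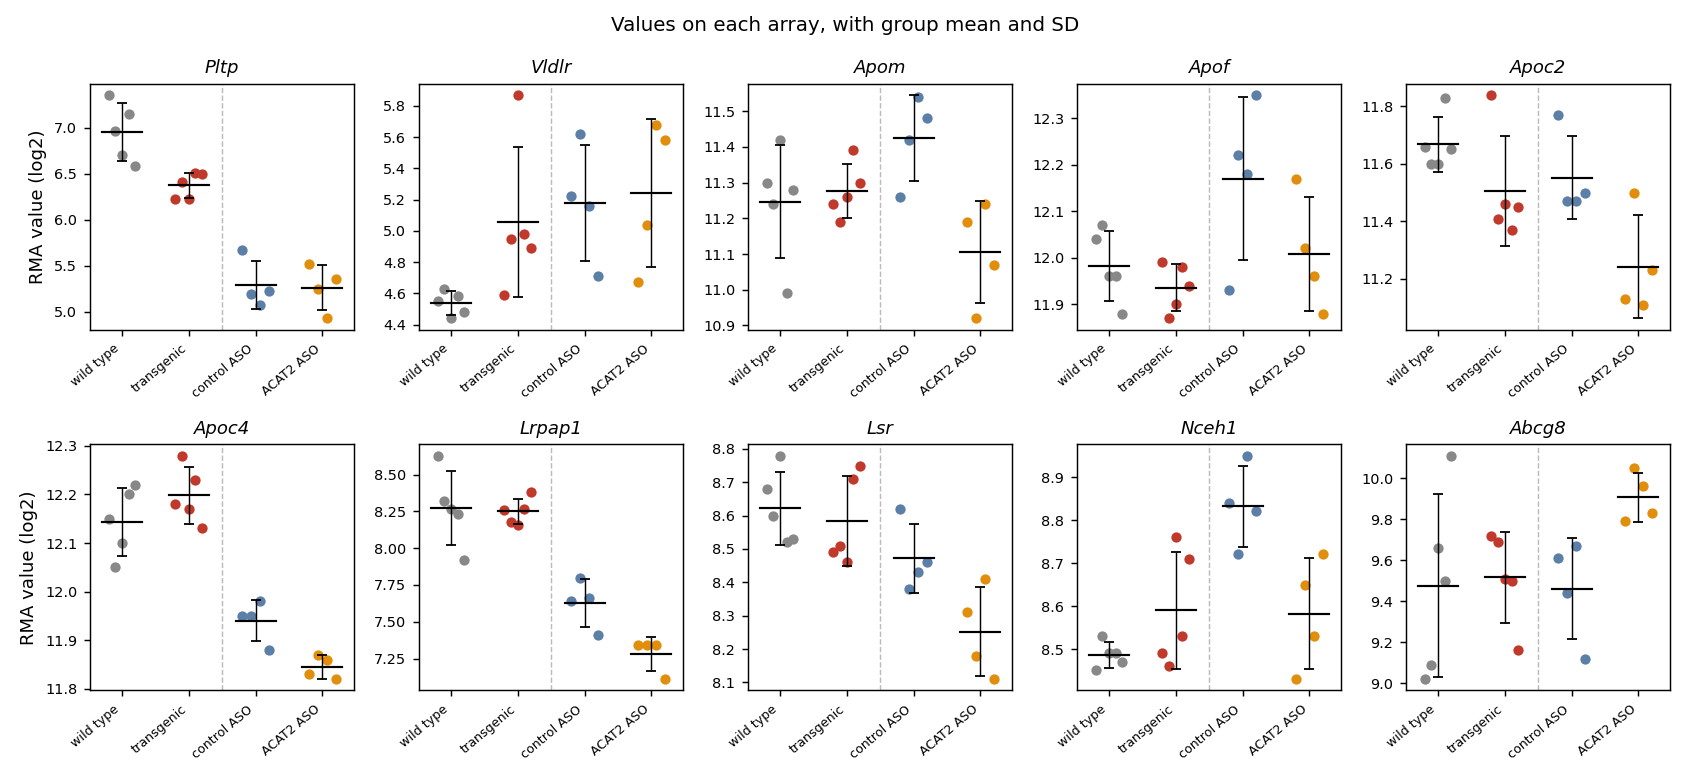
RMA log2 value on every array (points) with the group mean and SD (black) for the genes with the smallest p, in wild type and NPC1L1 liver transgenic (n = 5 each) and control ASO and ACAT2 ASO (n = 4 each), with a dashed line between the models. Pltp separates transgenic from wild-type arrays, and Abcg8, Apom, Apoc4 and Lrpap1 separate ACAT2 ASO from control ASO arrays.

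Over the 14 genes with several probe sets there were 24 other probe sets. The sign was that of the used probe set for 18 of 24 in transgenic liver and for 17 of 24 after the ASO.

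The models were also set side by side. The difference of the effects called 0 of 36, against 1.07% of all genes, with 5 of 36 at an unadjusted limma p under 0.05, against 15.4%. These were Nceh1, Apom, Apoc4 and Lrpap1, lower in the ASO comparison, and Pltp, higher in it. The difference lay above 0 for 12 of 36, against 48% of all genes. The change had the same sign in both models for 21 of 36 genes, or 58.3%, against 44.5% of all genes.

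**Figure D3:**
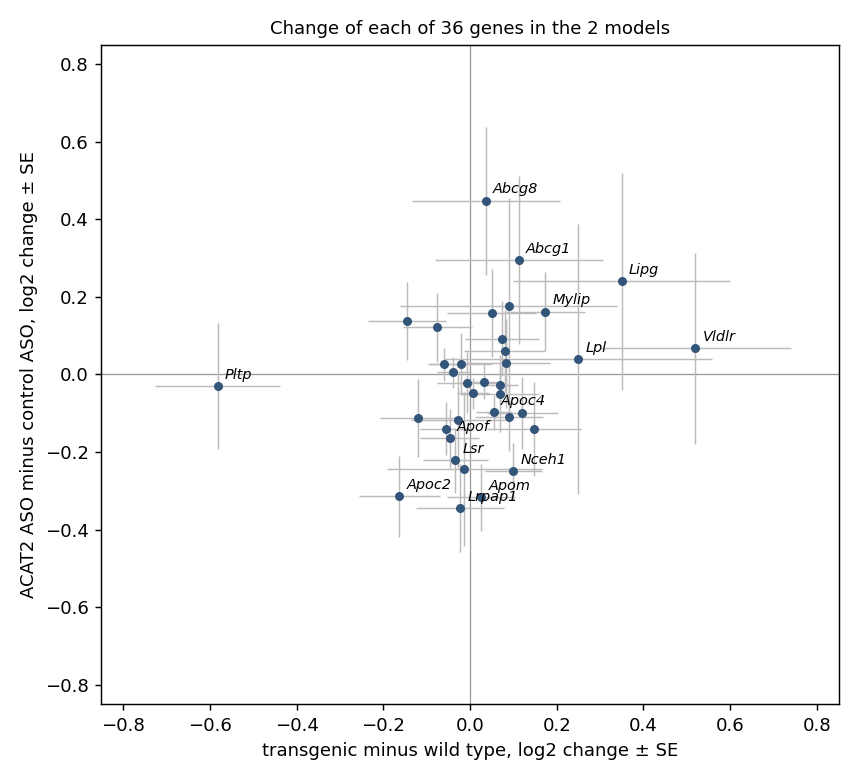
Log2 change of each of 36 genes in transgenic liver (horizontal axis) against that after the ACAT2 ASO (vertical axis), with SE bars. Pltp lies far left at -0.58 and near 0 vertically, Vldlr far right at 0.52, and Abcg8 at the top at 0.45.

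Single arrays of a group differed widely for some genes, such as Lpl, which ranged from 8.54 to 10.24 in wild type. Abcg1, Apobec1 and Smpdl3a were highest in all 4 groups on the array with the highest macrophage marker mean, 3 of 36 genes, against 3.96% of all genes. The pattern was looked for after the values were seen. Apobec1 read 7.43 on wild-type 2, 7.36 on transgenic 5, 7.27 on ACAT2 ASO 1 and 6.95 on control ASO 4. Smpdl3a read 9.56, 9.55, 9.05 and 9.04 there.

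The opposite held for 4 of 36 genes, against 1.75% of all genes. Apoe, Mttp, Sar1b and Lpcat3 were lowest in all 4 groups on those arrays, with Apoe tied at 2 decimals in the transgenic group. The macrophage marker mean ranged from 7.58 to 8.83 in wild-type, from 7.68 to 8.25 in transgenic, from 7.08 to 8.19 in control ASO and from 7.12 to 8.64 in ACAT2 ASO samples. Of the 16 markers 15 lay above 0 after the ASO, against 49.7% of all genes, with a median of 0.371, against -0.00056. The markers were read on the same arrays, and the ranges of their mean overlapped between the groups, so they are not separate observations. Limma called 0 of 16, against 0.597% of all genes. At an unadjusted p under 0.05 there were 2 of 16, against 13.3% of all genes. In transgenic liver 7 lay above 0 with a median of -0.0122. The part of these cells in any difference above was not tested.

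**Figure D4:**
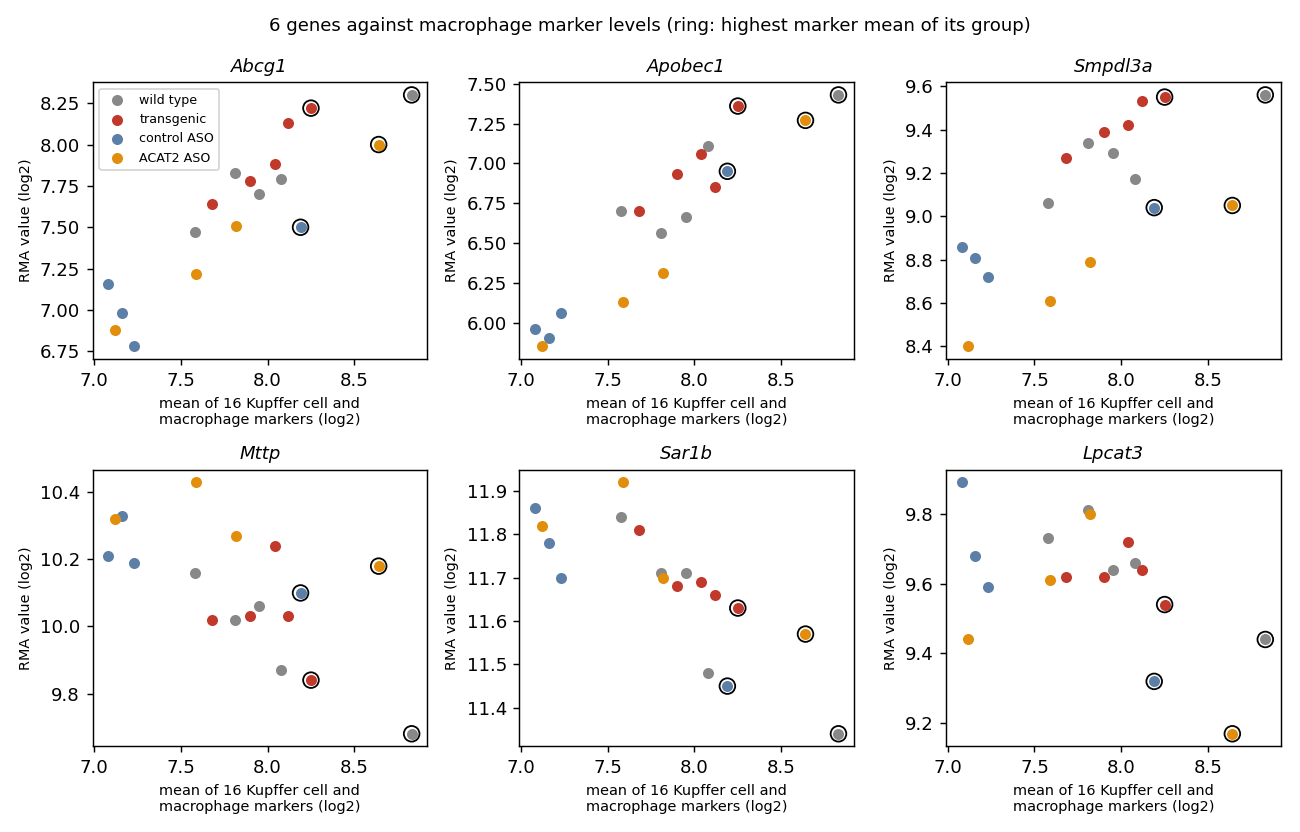
RMA log2 value of 6 genes (vertical axes) against the mean log2 level of 16 Kupffer cell and macrophage markers (horizontal axes) on each of 18 arrays, coloured by group, with rings on the array of each group with the highest marker mean. Abcg1, Apobec1 and Smpdl3a are highest of their group on the ringed arrays, and Mttp, Sar1b and Lpcat3 lowest of their group.

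Apoc2 and Apoa4 shared another set of arrays. Both were highest on the same array in 3 of the 4 groups, namely wild-type 4, transgenic 1 and control ASO 1. The pair was picked after the values were seen, and 50 of the 630 pairs among the 36 genes shared the highest array in 3 or 4 groups.

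**Figure D5:**
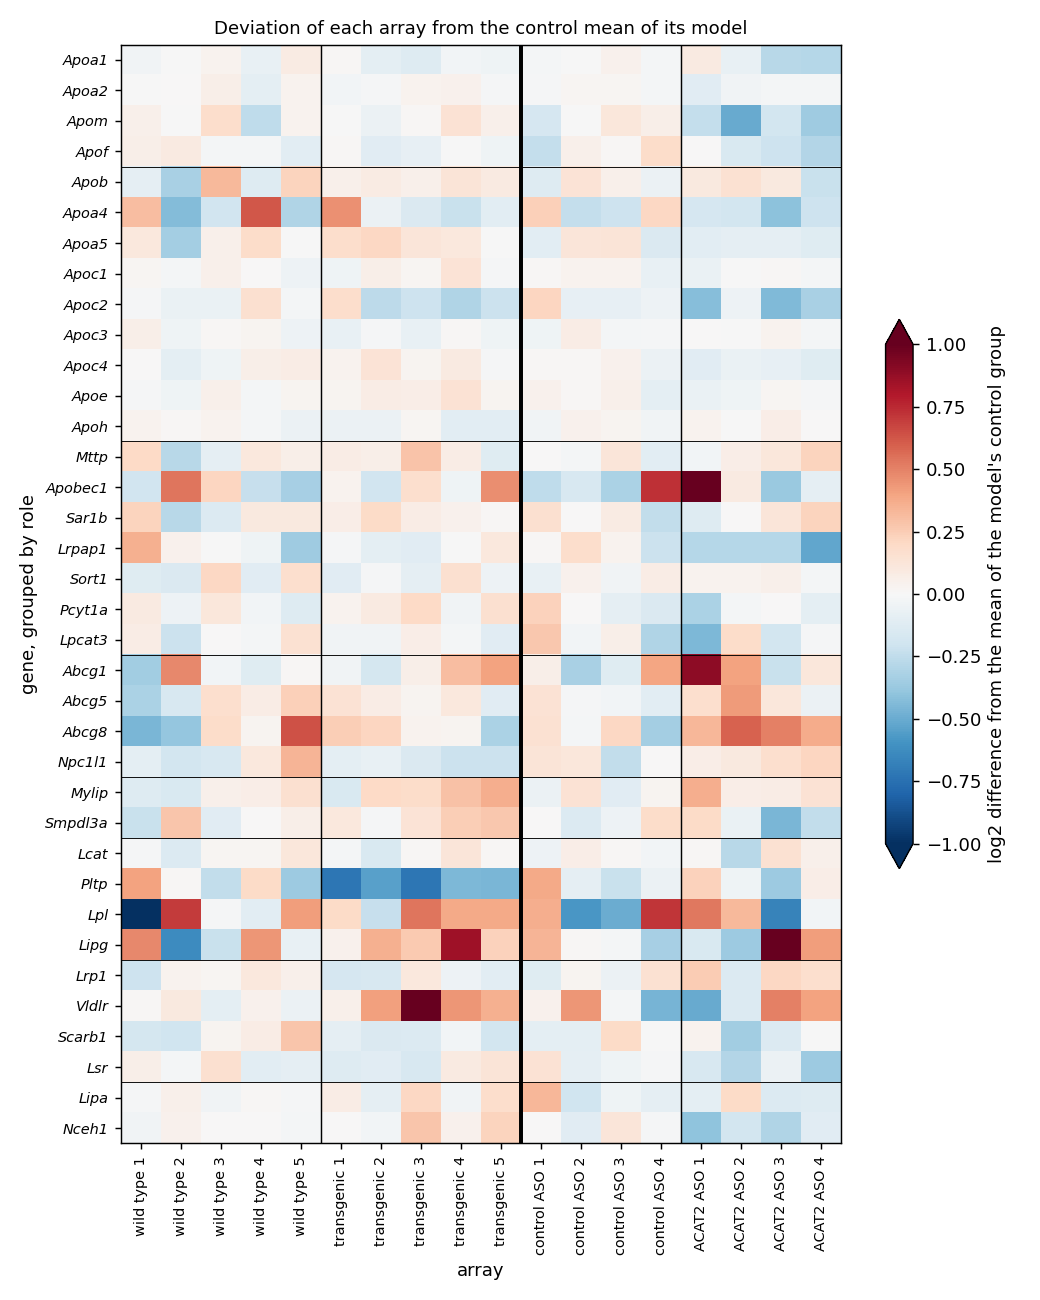
Log2 difference of each array (columns) from the mean of its model's control group, wild type or control ASO, for 36 genes (rows, grouped by role), with colours ending at -1 and 1. Pltp is blue on all 5 transgenic arrays, Abcg8 is red on all 4 ACAT2 ASO arrays, and Abcg1, Apobec1 and Lpl vary strongly within groups.

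Few genes of the wider pathway passed the test. Of 27 further genes, namely LXR receptors, cofactors and other sterol genes, 21 were measured. Limma called 0 of 21 in transgenic liver (4 at an unadjusted p under 0.05, against 10.9% of all genes), with a median of -0.0306. After the ASO it called 1 of 21, higher, against 0.597% of all genes. At an unadjusted p under 0.05 there were 6 of 21, 5 higher and 1 lower, against 13.3% of all genes, with a median of 0.042. Nr1h3, which codes for LXR alpha, differed by -0.03 ± 0.08 and -0.14 ± 0.09, and Rxra, its partner, by 0.15 ± 0.07 and -0.02 ± 0.08 (limma adjusted p = 0.417 or above for each).

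The called gene was Ncoa2, a coactivator of nuclear receptors, which rose after the ASO by 0.33 ± 0.06 on the log2 scale (SE, limma adjusted p = 0.0267), with group means of 8.67 ± 0.07 and 8.34 ± 0.07 (SD, n = 4). Its effect also differed from that in transgenic liver, by 0.38 ± 0.09 (limma adjusted p = 0.0452). The call of this difference ended in 18 of 26 alternatives, and of those that left out a single array it held only without wild-type 5, transgenic 1, transgenic 3, ACAT2 ASO 2 or control ASO 4. The call after the ASO ended in 10 of 27 alternatives. It ended without ACAT2 ASO 1, 3 or 4 and without control ASO 1, 2 or 3, with adjusted p up to 0.0969, and with the mean of its probe sets the change was 0.14 (limma adjusted p = 0.199).

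Of 64 other genes of lipoprotein metabolism 57 were measured, and limma called 0 of 57 in each comparison, with 6 at an unadjusted p under 0.05 in transgenic liver and 8 after the ASO, shares near the 10.9% and 13.3% of all genes. The medians were 0.028 and -0.0292. Abca8a, an ABC transporter gene, differed by -0.56 ± 0.14 in transgenic liver (limma adjusted p = 0.108). Surf4, a cargo receptor for secreted lipoproteins, differed by -0.20 ± 0.06 after the ASO (limma adjusted p = 0.123). Lmf1, the maturation factor of lipases, differed by 0.25 ± 0.08 in transgenic liver and -0.29 ± 0.09 after the ASO. The difference of its effects, -0.54 ± 0.13, was called (limma adjusted p = 0.0499), but the call ended in 21 of 26 alternatives, among them 15 that left out a single array, with adjusted p up to 0.109. Of those it held only without wild-type 5, transgenic 2 or control ASO 4.

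Promoter windows of 300 bases from RefSeq were matched for 27 of the 36 genes, 35 windows in all. The classical LXR element, AGGTCA repeated in the same direction with 4 bases between, searched on both strands, was in 0 of 35 and in 0.0152% of 32851 windows of all genes. The single hexamer AGGTCA, on either strand, was in 6 of 35, against 16.3% of all windows, in Apoa2, Apoc2, Apoc4, Apoh, Npc1l1 and Pcyt1a. GGGTCA, on either strand, was in 5 of 35, against 13.7%, in Apoa5, Apoe, Apom and Pcyt1a. TATAAA on the gene's strand was in 8 of 35, against 8.32%, in Abcg5, Apoa2, Apoa5, Apob, Apoe, Mylip and Pltp. These are letter matches in a short window, not binding sites.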

How the data were processed

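The authors deposited log2 values that summarise probe sets. They used RMA, per the submitters' processing notes, and its version is not given in the sources used here. That the scale is log2 was read from the range of the values. RNA was amplified from the 3′ end, per the labels' protocols. Of 45141 probe sets per array, 104 controls were left out. The annotation gave 1 symbol for 28898, several for 551 and none for 15588, and 28689 matched the RefSeq gene table (GRCm38.p6) by Entrez number. Differences were tested with limma 3.58.1 (R 4.3.3), by lmFit and eBayes on all 18 arrays with a mean per group, two-sided, with Benjamini-Hochberg adjustment over 17097 genes. The number of arrays limits the precision. No pair of arrays held identical values.

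The genes and lists were chosen with earlier results of these data known. Per-array values were given by rule for genes at an unadjusted p under 0.05 and for the 5 smallest p of each comparison. Npc1l1, also in the rule, was given as group ranges. Values of Abcg5, Abcg1, Apobec1 and Smpdl3a were added after they were seen. The lists gave up to 3 genes of smallest p each. Nr1h3 was added as the LXR gene. The knockdown was not checked, since the ASO's target was not analysed here. The fit was tested on simulated data. Alternatives were another choice of probe set, scaling, variance model or arrays, and a replicate block. Figures were drawn with matplotlib 3.10.9.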

Additional observations from a re-analysis of the deposited data

Results flagged for a closer look

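Within groups, 11 values of the 36 genes lay far from the other arrays of their group by Dixon's criterion at 95%. With 144 groups tested, chance gives about 1 in 20. Apoc2 was high on wild-type 4 (11.83, others 11.60 to 11.66), on transgenic 1 (11.84, others 11.37 to 11.46) and on control ASO 1 (11.77, others 11.47 to 11.50). Apoa4 was high on transgenic 1 (11.26) and low on ACAT2 ASO 3 (10.59). Apobec1 was high on control ASO 4 (6.95, others 5.90 to 6.06), the control ASO array with the highest macrophage marker mean.

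On ACAT2 ASO arrays, Apoa2 was low on array 1 (13.29), Apob on array 4 (7.83) and Lrpap1 on array 4 (7.11, the others all 7.34), while Lipa was high on array 2 (9.88). Lrp1 was low on wild-type 1 (9.79). No explanation of these values was tested.

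For 2 genes of the wider lists limma called the difference of the effects, against 1.07% of all genes. They were 1 of the 21 LXR receptors, cofactors and other sterol genes and 1 of the 57 other lipoprotein genes. The calls ended in 18 of 26 alternatives for Ncoa2 and in 21 of 26 for Lmf1. The ASO effect minus the transgenic effect was 0.377 for Ncoa2 and -0.539 for Lmf1.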

How the results depend on the processing

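In transgenic liver and for the difference of the effects, 0 of the 36 genes were called under every alternative run. After the ASO the number was 2 with array weights and 0 under the others. The median of the 36 was 0.0063 in transgenic liver without wild-type 2, and also without the 3 arrays that stand apart. Leaving out single arrays gave 0.0063 to 0.0455, and after the ASO -0.0541 to -0.0149, the lowest without control ASO 4. The sources used here do not say whether replicate numbers pair the samples. Deviations of same-numbered samples had correlations of -0.48 to 0.17 for the transgenic model and -0.48 to 0.47 for the ASO model. Those of differently numbered samples ran from -0.28 to 0.36 and from -0.56 to 0.64. With so few samples these values show no sign of pairing but cannot exclude it. With the replicate block 0 of the 36 were called in either comparison, and over all genes 2 instead of 39 and 18 instead of 102. In fits of a comparison's own arrays these were 13 and 17, and 465 for the ASO with array weights. For the difference of the effects 183 became 12 with the block, 112 with median centring, 102 with quantile normalization, 369 with array weights and 58 without the 3 arrays, which gave 46 for the ASO comparison. Leaving out single arrays gave 20 (without wild-type 3) to 58 in transgenic liver, and 42 (without ACAT2 ASO 3) to 203 (without ACAT2 ASO 2) after the ASO, with 69 to 262 for the difference without the same arrays. Of 2877 values of the 36 genes under alternatives, 116 turned sign, all for differences of at most 0.25 in size with an unadjusted limma p of 0.107 or more. Npc1l1, Vldlr and, in the ASO model, Pltp lay near the low end of the scale. Apoa1, Apoa2 and Apoe lay near its top, and loss of range at either end was not tested. The causes of these changes were not tested.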
